A study of Rattus norvegicus with 20 samples.

Results

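Di(2-ethylhexyl) phthalate (DEHP), a plasticiser of polyvinyl chloride, was compared with its corn oil vehicle in foetal rat testes, using the 8 arrays labelled DEHP 500mg_kg or Control out of 20 arrays in the series. Pregnant Han Wistar dams received DEHP at 500 mg/kg or corn oil by gavage once a day from gestation day 12 to day 19. Each array held RNA of 1 litter, pooled from the testes of at least 3 male pups (6 testes), and there were 4 arrays per group. The other 12 arrays come from litters given, at the same dose, MEHP (the monoester formed from DEHP), the trimellitate plasticiser TOTM or EHO, which the labels do not explain, and they enter here as levels only. The members are all genes with a probe on the array, of which 23408 could be tested. A testis pool mixes all cell types of the organ, so fewer cells of a type and less RNA per cell cannot be told apart.

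In the foetal rat testis, foetal Leydig cells in the interstitium take up and make cholesterol and turn it into androgens, which masculinise the reproductive tract. Sertoli cells surround the gonocytes (foetal germ cells) in the cords and secrete anti-Müllerian hormone. In the gut DEHP is cleaved to MEHP, and exposure of pregnant rats in the days when the tract is masculinised is known to lower foetal testosterone and the transcripts of steroid and cholesterol enzymes. Genes outside the steroid and cholesterol groups are given first here.

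Levels are log2 signals minus their array's 75th percentile, and differences are the DEHP mean minus the control mean on that scale with the standard error of the fit. A gene is called, and is said to fall, at a Benjamini-Hochberg adjusted p under 0.05 in limma. The 4 DEHP arrays were on 1 slide and the 4 control arrays on another, scanned apart, so slide and treatment cannot be told apart in any value below. The share of spots well above background ran from 69.6% to 73.5% on the DEHP arrays and from 65.7% to 79.8% on the control arrays. The software marked 79 to 124 spots per DEHP array as uneven or outlying, against 539 to 551 per control array, and these spots were set aside. As a result 401 probes that passed the background filter had under 2 control values and were not tested, and 0 had under 2 DEHP values. Control 2 stood apart from the other control arrays (Pearson r across probes 0.965 to 0.976, against 0.990 to 0.991 among the other 3), while Control 3 was closer to DEHP 3 (r = 0.993) than to any control array.

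With DEHP 17 genes fell and 0 rose, which is 0.0726% of the 23408 genes tested. The falls were 1.94-fold to 6.50-fold, and in all 17 every DEHP array lay below every control array. The steroid and cholesterol lists hold 6 of the 17: Star, Scarb1 and Lhcgr in the first, and Tm7sf2, Cyp51 and Ebp in the second. The remaining 11 are a glutathione transferase (Gsta2), a seminal vesicle protein (Svs5), an adrenal-type hydroxylase (Cyp11b1), the protein C receptor (Procr), an ion pump subunit (Atp4b), a secreted glycoprotein (Stc2), a bile acid binding protein (Fabp6), dopa decarboxylase (Ddc), stearoyl-CoA desaturase (Scd), Degs1l2 and a probe with no gene name. At an unadjusted p under 0.05 there were 913 genes, 232 higher and 681 lower, where 1170 would be expected if no gene differed. That split depended on the scaling: it was 868 higher to 262 lower with median scaling, 156 to 33 with normexp, 411 to 520 with quantile normalization and 51 to 1765 with the percentile over unmarked probes, so it gives no direction for genes in general. The number of calls was 1 with normexp background correction, 1 without the background filter and 1 in a fit of all 20 arrays, and it was 4 without DEHP 3, 4 without Control 3, 6 without Control 1, 8 without DEHP 1, 9 without DEHP 4 and 11 without Control 4. Without Control 2 there were 16 calls, 15 of them among the 17.

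**Figure D1:**
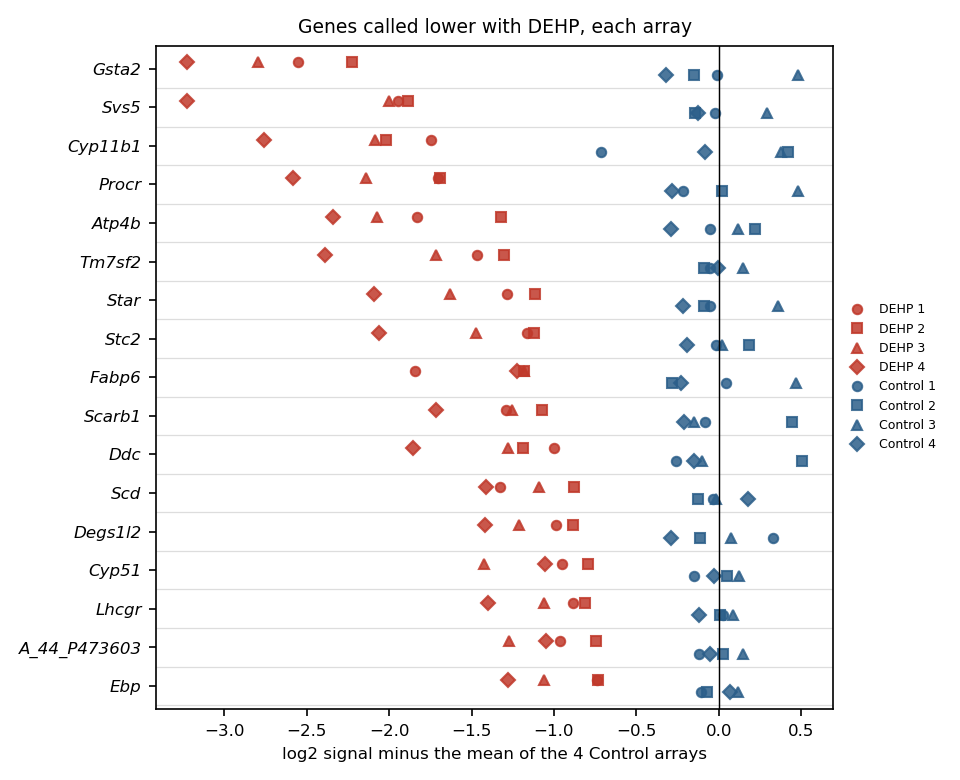
Log2 signal of the 17 genes called lower, on each of the 4 DEHP arrays (red, upper row of each gene) and the 4 control arrays (blue, lower row), minus the gene's control mean. No DEHP array reaches the lowest control array in any of the 17 genes, and DEHP 4 is the lowest DEHP array in 14 of them.

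Promoter windows of 4 called genes outside the steroid and cholesterol lists are shown because each holds a short motif tied to a pathway of this tissue: the NR5A1 element (NR5A1, also called SF-1, is the factor that drives steroid genes), the sterol element read by SREBP factors, or the antioxidant response element. Sequences are RefSeq's in assembly GRCr8, written 5′ to 3′ on the gene's strand and covering the 250 bases before the annotated start site, with the motif in capitals. Svs5 lies on the plus strand at chr3:173415271-173415520, Ddc on the minus strand at chr14:90682784-90683033, Procr on the plus strand at chr3:164714477-164714726 and Fabp6 on the minus strand at chr10:28569728-28569977.
Svs5: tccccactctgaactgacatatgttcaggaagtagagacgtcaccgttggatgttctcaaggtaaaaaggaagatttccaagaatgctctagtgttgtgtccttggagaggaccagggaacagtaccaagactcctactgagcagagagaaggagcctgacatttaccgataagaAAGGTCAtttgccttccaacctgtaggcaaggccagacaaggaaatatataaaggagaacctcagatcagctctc
Ddc: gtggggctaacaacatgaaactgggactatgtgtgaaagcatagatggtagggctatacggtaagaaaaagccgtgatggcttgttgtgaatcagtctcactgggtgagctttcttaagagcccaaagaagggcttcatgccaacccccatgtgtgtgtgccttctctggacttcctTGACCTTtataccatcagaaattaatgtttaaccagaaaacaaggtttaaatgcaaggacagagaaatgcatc
Procr: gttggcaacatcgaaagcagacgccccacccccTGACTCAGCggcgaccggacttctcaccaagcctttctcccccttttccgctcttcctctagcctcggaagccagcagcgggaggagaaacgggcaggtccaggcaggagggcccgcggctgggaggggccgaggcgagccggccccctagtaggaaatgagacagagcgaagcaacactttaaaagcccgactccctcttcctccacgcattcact
Fabp6: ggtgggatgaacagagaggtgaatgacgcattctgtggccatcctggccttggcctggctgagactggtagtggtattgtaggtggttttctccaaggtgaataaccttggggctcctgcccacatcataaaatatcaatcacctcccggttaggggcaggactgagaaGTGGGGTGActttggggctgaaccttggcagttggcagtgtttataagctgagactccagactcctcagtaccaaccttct

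The search covered windows of 300 bases (250 before the start and 50 after), on both strands, and 13 of the 17 called genes had one. The NR5A1 letters AAGGTCA, which contain the AGGTCA core shared by many nuclear receptors, stood in 2 of the 13, 75 bases before the start of Svs5 and 73 before that of Ddc, and in 4.61% of all 33469 windows. The SREBP letters TCACNCCAC stood in 2 (Fabp6 and Degs1l2) and in 1.12% of all windows. The antioxidant letters TGACNNNGC stood in 4 (Gsta2, Procr, Stc2 and Scd) and in 12.1% of all windows, and the CREB letters TGACGTCA in 0 and in 1.83%. These matches are descriptions of letters and not of binding.

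Gsta2, an alpha-class glutathione transferase that conjugates electrophiles to glutathione, fell the most. Its probe (chr8:83302934-83302993 in rn4) read −1.02, −0.70, −1.27 and −1.70 on the DEHP arrays and 1.52, 1.38, 2.01 and 1.21 on the control arrays. Every DEHP array was thus below its array's 75th percentile and every control array above it. The difference was −2.70 ± 0.22, or 6.50-fold lower (limma adjusted p = 0.000758), and it passed in 22 of 23 alternative settings. A dimmer Gsta2 probe, well above background on 5 of the 8 arrays, was at −4.14. Some alpha-class genes are near-identical copies, so a probe may read more than 1 of them. Gsta3, another alpha-class gene, was at 4.38, 4.13, 4.38 and 3.92 with DEHP and at 4.67, 4.85, 4.88 and 4.47 in control. These groups did not overlap, and its difference of −0.52 ± 0.15 did not pass (adjusted p = 0.861).

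The wider glutathione and oxidative stress list showed no common direction. Of 23 members tested 1 fell (Gsta2) and 0 rose, and the median difference was −0.05, against −0.04 over all genes tested. Prdx1, a peroxiredoxin that removes peroxide, was 0.20 ± 0.13 higher without overlap. Gss, which makes glutathione, was at 0.24 ± 0.15, and Ephx1, the microsomal epoxide hydrolase, at −0.27 ± 0.17, with overlapping groups in both.

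Svs5, known as a secretory protein of the rat seminal vesicle, fell 4.81-fold. The probe (chr3:155265829-155265888 in rn4) read 2.48, 2.54, 2.43 and 1.20 with DEHP and 4.41, 4.28, 4.72 and 4.30 in control. DEHP 4 lay over 1 log2 unit below the other DEHP arrays, and the gap to control was present without it. The difference was −2.27 ± 0.26 (adjusted p = 0.00851).

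Procr, the endothelial protein C receptor, fell 4.09-fold. It read 2.00, 2.01, 1.57 and 1.12 with DEHP and 3.49, 3.72, 4.19 and 3.42 in control (chr3:146272881-146273406 in rn4), a difference of −2.03 ± 0.22 (adjusted p = 0.00609). A second Procr probe gave −2.10. Of 15 other endothelial markers tested 0 were called and 0 were free of overlap, with a median of −0.05. Of these 15 markers 6 were above 0 and 9 below. Pecam1, an adhesion protein of vessel walls, was at −0.29 ± 0.15, and Cdh5, the cadherin of endothelial junctions, at −0.25 ± 0.14. In the other direction Eng was at 0.27 ± 0.23 and Tie1 at 0.23 ± 0.20. The mean level of the endothelial list ran from −0.34 to −0.08 on the DEHP arrays and from −0.27 to −0.09 on the control arrays.

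Atp4b, the beta subunit of the gastric proton and potassium pump, fell 3.71-fold. Its levels were −1.54, −1.04, −1.79 and −2.05 with DEHP and 0.24, 0.51, 0.40 and 0.00 in control (chr16:81008937-81008996 in rn4). The groups were separated by over 1 log2 unit, and the difference was −1.89 ± 0.20 (adjusted p = 0.00609). Stc2, stanniocalcin 2, a secreted glycoprotein hormone, fell 2.74-fold. It read 0.17, 0.21, −0.14 and −0.73 with DEHP and 1.32, 1.52, 1.35 and 1.14 in control (chr10:16516680-16516739 in rn4), a difference of −1.46 ± 0.20 (adjusted p = 0.0181).

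Cyp11b1, the 11-beta-hydroxylase that completes corticosterone synthesis in the adrenal cortex, fell 4.45-fold. Its levels were −1.62, −1.89, −1.97 and −2.63 with DEHP and −0.59, 0.55, 0.50 and 0.04 in control (chr7:112977770-112977829 in rn4). Control 1 was the lowest control array and still lay above all DEHP arrays, and the difference was −2.15 ± 0.26 (adjusted p = 0.0105). Cyp11b2, the near-identical aldosterone synthase, was at −0.45 ± 0.18 with overlapping groups. Mrap, which carries the corticotropin receptor to the membrane, was at 1.34, 1.23, 0.85 and 0.33 with DEHP and at 1.95, 2.51, 2.23 and 2.12 in control. Its groups did not overlap, and its difference of −1.26 ± 0.21 missed the threshold (adjusted p = 0.0695).

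The adrenal marker list is given whole beside Cyp11b1. All 5 members tested were below 0, 1 of them called, with a median of −0.47. Their mean level ran from −0.68 to −0.07 on the DEHP arrays and from 0.44 to 0.64 on the control arrays. These means include Cyp11b1 itself and Mrap, which had the largest differences of the list, so they are no separate evidence beside Cyp11b1. Of the defining adrenal genes, Cyp21a1 (the 21-hydroxylase) was well above background on 1 of 4 DEHP and 1 of 4 control arrays, and Mc2r (the corticotropin receptor) on 0 of 4 DEHP and 2 of 4 control arrays, so neither was tested. Akr1b7, an aldose reductase relative made in the adrenal, was at −0.47 ± 0.22 with overlap. Hsd11b2, the brightest member tested, was at −0.13 ± 0.17, also with overlap. The part of adrenal tissue in the Cyp11b1 difference was not tested.

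Fabp6, the ileal bile acid binding protein, fell 2.56-fold. It read −2.96, −2.30, −2.30 and −2.34 with DEHP and −1.07, −1.40, −0.65 and −1.34 in control (chr10:28694853-28695787 in rn4). The DEHP levels are near background, with 3 of 4 arrays well above it, so Fabp6 was tested only because all 4 control arrays were. The difference was −1.36 ± 0.20 (adjusted p = 0.0276), and it passed in 8 of 22 alternative settings. Ddc, which makes dopamine and serotonin from their amino acid precursors, fell 2.52-fold. It read 1.85, 1.66, 1.57 and 0.99 with DEHP and 2.59, 3.36, 2.75 and 2.70 in control (chr14:92698673-92698732 in rn4), a difference of −1.33 ± 0.21 (adjusted p = 0.0454). This call is near the threshold and passed in 9 of 23 alternative settings. Ddc was the single called gene among 17 synaptic and neuronal genes tested, whose median was −0.04, and Gap43, a growth cone protein, was at −0.38 ± 0.20 with overlap.

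Scd, the desaturase that makes oleate from stearate, fell 2.26-fold. It read −2.28, −1.83, −2.05 and −2.37 with DEHP and −0.99, −1.08, −0.97 and −0.77 in control (chr1:249459057-249459116 in rn4), a difference of −1.18 ± 0.15 (adjusted p = 0.0109). Of 15 fatty acid synthesis genes tested, 13 lay below 0 but only Scd was called, and the median was −0.08. Fads2, a desaturase of polyunsaturated fatty acids, was at −0.32 ± 0.14 without overlap. Fads1, its partner desaturase, was at −0.32 ± 0.15, and Elovl6, which elongates palmitate, at −0.27 ± 0.14, with overlap in both. Degs1l2, whose array name is a predicted gene, fell 2.18-fold (−1.13 ± 0.17, adjusted p = 0.0293) and passed in 11 of 23 alternative settings. It read −2.59, −2.49, −2.81 and −3.02 with DEHP and −1.27, −1.72, −1.52 and −1.89 in control. The unnamed probe A_44_P473603 at chr6:79726852-79726911 in rn4 fell 2.01-fold (−1.01 ± 0.14, adjusted p = 0.0215), and it too passed in 11 of 23.

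Fatty acid oxidation genes and targets of PPAR alpha, the receptor through which phthalate monoesters induce peroxisomes in rat liver, were not called in either direction. Of 23 tested, 10 were above 0 and 13 below, with a median of −0.03. Pex11a, a peroxisome division protein, was at −0.98, −1.13, −1.05 and −1.01 with DEHP and at −0.67, −0.96, −0.84 and −0.79 in control, which do not overlap, a difference of −0.23 ± 0.12 (adjusted p = 0.921), while a dimmer Pex11a probe was at 0.07. Acaa1a, a peroxisomal thiolase, was at −0.17 ± 0.14 with overlap. Of 9 xenobiotic cytochromes P450 tested 0 were called, with a median of −0.18, and Cyp4b1 was at −0.22 ± 0.18. Nr1i2, the pregnane X receptor, was at −0.36 ± 0.16 with overlap.

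Among transporters 0 of 24 solute carriers were called, but Slc7a8 was close. Slc7a8, a carrier of neutral amino acids, was at 0.39, 0.65, 0.28 and −0.45 with DEHP and at 1.37, 1.89, 1.60 and 1.31 in control. The groups did not overlap, and the difference of −1.33 ± 0.22 missed the threshold (adjusted p = 0.0674). Slc16a3, a lactate exporter, was at −0.87 ± 0.25, also without overlap (adjusted p = 0.746). Slc4a2, an anion exchanger, was at 0.52 ± 0.20 and Slc6a6, the taurine carrier, at −0.44 ± 0.16, with overlap in both.

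The steroid and cholesterol genes are given briefly. Of 13 steroidogenesis genes tested 3 fell, 6 were below control without overlap and the median was −0.12, and of 23 cholesterol genes 3 fell, 13 were below without overlap and the median was −0.44. The counts without overlap depended on the scaling: with median scaling they were 5 steroidogenesis and 5 cholesterol genes (median −0.33), and with normexp 1 and 3 (median −0.20). Over all genes with values on all 8 arrays, 453 (1.94%) lay below control without overlap. Star, which carries cholesterol into mitochondria, was at 2.06, 2.22, 1.71 and 1.25 with DEHP and at 3.29, 3.25, 3.70 and 3.12 in control, and fell 2.89-fold. Tm7sf2, a sterol reductase, fell 3.29-fold. Lhcgr, the luteinising hormone receptor, fell 2.06-fold, but only 2 of 4 DEHP arrays were well above background, so that it was tested only through its 4 control arrays, and it passed in 10 of 22 alternative settings. A filter on all 8 arrays left out Lhcgr and Fabp6 and kept the other 15 calls. Cyp17a1, the hydroxylase that leads to androgens, was marked on all 4 control arrays and has no test. Kept as read, its levels were 5.84, 6.35, 5.66 and 5.08 with DEHP and 5.09, 5.38, 5.46 and 4.96 in control, and these overlap.

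**Figure D2:**
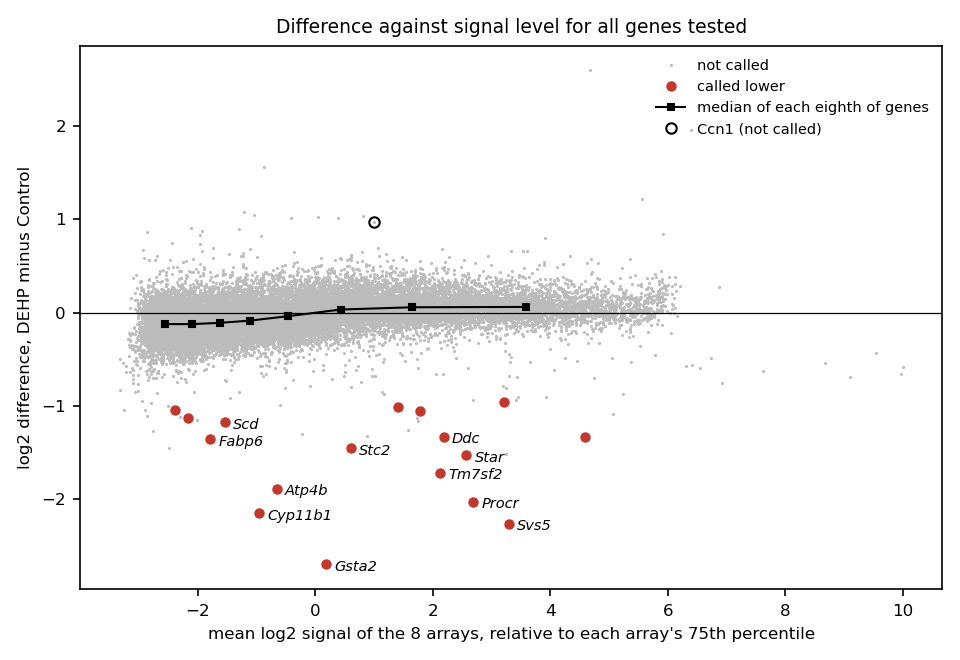
Log2 difference (DEHP minus control) of each of the 23408 genes against its mean log2 signal over the 8 arrays, with the 17 called genes in red and the median of each eighth of genes as black squares. The called genes lie at all levels, and the median runs from −0.12 in the dimmest eighth to 0.06 in the brightest.

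Differences depended on signal level, which bears on every list below. The median difference was −0.12 in the dimmest eighth of genes and 0.06 in the brightest, so a list of bright probes starts slightly above a list of dim ones. Scaling by the array median moved the median of all genes up by 0.108. Lists are set against the median of all genes, −0.04, which allows for a shift of all genes but not for signal level. Under at least 1 scaling or filter alternative the median changed sign for 42 of the 56 lists, and no direction is read from those medians. Among the lists described here they include steroidogenesis, glutathione, fatty acid synthesis and oxidation, solute carriers, nuclear receptors, retinoid handling, endoplasmic reticulum stress, cell cycle, matrix, ribosomal and immediate early genes, neuronal genes, the signalling lists, and endothelial, erythroid and peritubular markers.

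Markers of foetal Leydig cells other than the enzymes were lower as a group of values but without a call. Of 10 tested 0 were called, 9 were below 0, 5 were below without overlap, and the median was −0.26. Among the 23316 genes with a value on every array, 453 (1.94%) lay below control without overlap. That count of all genes depended on the scaling, at 232 with median scaling and 82 with normexp. The 5 Leydig markers are therefore given for the scaling as reported only. Vcam1, an adhesion receptor, was at 0.51, 0.66, 0.36 and 0.01 with DEHP and at 0.80, 1.23, 0.88 and 1.08 in control, a difference of −0.62 ± 0.16 (adjusted p = 0.614). Nr0b1, a repressor of steroid genes, was at −0.60 ± 0.15 and Inha, the inhibin alpha subunit, at −0.53 ± 0.13. Prlr, the prolactin receptor, was at −0.47 ± 0.15 and Smpdl3a, a phosphodiesterase, at −0.25 ± 0.12. All 5 had every DEHP array below every control array. Insl3, the hormone of testis descent, had 2 control values after marked spots were set aside and was at −0.26 ± 0.21. Kept as read, Insl3 was at 5.30, 5.23, 5.60 and 4.86 with DEHP and at 5.51, 6.26, 6.37 and 5.51 in control, which overlap, and the difference was −0.67 (adjusted p = 0.788).

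The medians of Sertoli cell and gonocyte markers were above 0. Of 18 Sertoli markers 0 were called, 14 were above 0 and the median was 0.11. Amh, anti-Müllerian hormone, was at 5.90, 5.87, 6.13 and 6.09 with DEHP and at 5.61, 5.33, 5.87 and 5.53 in control. All DEHP arrays were above all control arrays by these values, though DEHP 2 and Control 3 nearly meet, and the difference of 0.41 ± 0.14 did not pass (adjusted p = 0.921). Dmrt1, a testis transcription factor, was 0.13 ± 0.12 higher without overlap. Clu, the secreted chaperone clusterin, was at 0.23 ± 0.14 and Kitlg, the ligand of the germ cell receptor Kit, at 0.21 ± 0.15, with overlap in both, and a dimmer Kitlg probe was at −0.35.

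Of 16 gonocyte markers 0 were called, 12 were above 0 and the median was 0.18. This was the highest of the 56 lists as reported and in 17 of 23 alternative settings, but with normexp it was 0.21, under the 0.31 of translation factors and the 0.30 of proteasome subunits. Elavl2, a neuronal-type RNA binding protein of germ cells, was at 0.48 ± 0.20 and Nanos3, which protects early germ cells from death, at 0.46 ± 0.21, both with overlap. Kit itself was at −0.36 ± 0.14 without overlap. Sycp1, a protein of the meiotic synaptonemal complex and no member of the list, is described below. In the scaling and filter alternatives the medians of the Sertoli and gonocyte lists stayed above that of all genes. The gaps were 0.115 to 0.304 for Sertoli and 0.144 to 0.312 for gonocyte markers. The median of the Leydig list stayed below, by −0.314 to −0.163. The median of all genes was not matched to these lists for signal level.

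The peritubular, macrophage, erythroid and mesonephric lists had 0 called members. Peritubular and interstitial markers had a median of 0.02 over 13 tested, with 8 above 0 and 5 below. Nr2f2, a receptor of interstitial progenitors, was at −0.37 ± 0.13 without overlap and Tagln, a smooth muscle protein, at −0.29 ± 0.21 with overlap. Des was at 0.24 ± 0.19 and Dlk1 at 0.22 ± 0.16, with overlap in both. Macrophage and leukocyte markers had a median of −0.14, with 11 of 14 below 0, 0 called and 0 free of overlap. Csf1r, the macrophage growth factor receptor, was at 0.25 ± 0.23, and a dimmer probe of it at −0.15, while another probe was well above background on 0 of the 8 arrays. Erythroid markers had a median of −0.09 over 10 tested. Alas2, the haem enzyme of red cells, was at 2.91, 4.22, 4.66 and 3.53 with DEHP and at 3.65, 3.93, 3.38 and 3.80 in control, with DEHP arrays on both sides of the control range. Mesonephric duct markers had a median of −0.12, with Krt8, an epithelial keratin, at 0.37 ± 0.21 and overlapping.

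**Figure D3:**
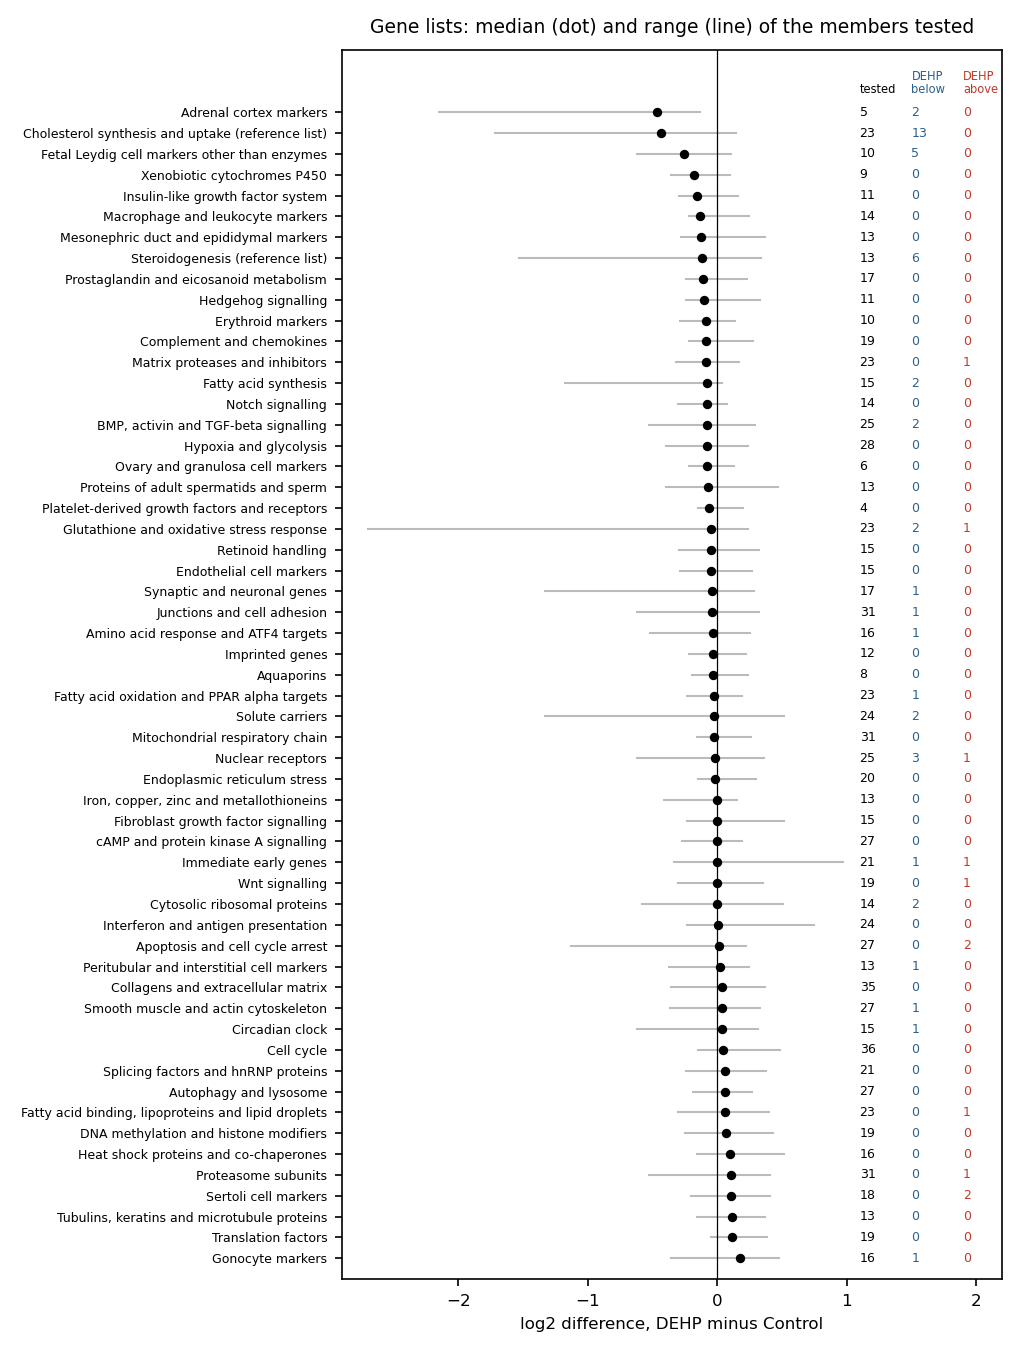
Median (dot) and range (line) of the log2 difference, DEHP minus control, over the tested members of each of 56 gene lists, sorted from lowest to highest median, with the number tested and the numbers of members whose DEHP arrays all lie below or all above the control arrays. Adrenal, cholesterol and Leydig lists are at the top with medians of −0.47, −0.44 and −0.26, and the gonocyte list is at the bottom with 0.18.

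By limma 0 genes were called higher with DEHP. At an unadjusted p under 0.05 limma gave 232 higher, against 868 with median scaling, 411 with quantile normalization, 156 with normexp and 51 with the percentile over unmarked probes. In 203 genes, 0.871% of the 23316 with values on all 8 arrays, every DEHP array was above every control array, and genes without overlap in either direction made up 2.81%. The split of such genes depended on the scaling: it was 203 higher to 453 lower as reported, 191 to 232 with median scaling, 85 to 82 with normexp, 132 to 501 with the percentile over detected probes and 31 to 1053 with the percentile over unmarked probes. It also depended on the filter, at 199 to 381 with a filter on all 8 arrays. The 15 named genes with the largest differences ran from 0.35 to 0.97.

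Ccn1, a matrix protein and immediate early gene also known as Cyr61, led them. It was at 1.84, 1.24, 0.91 and 1.96 with DEHP and at 0.40, 0.65, 0.54 and 0.46 in control, a 1.96-fold difference of 0.97 ± 0.21 (adjusted p = 0.362). A second Ccn1 probe was at 0.80. DEHP 4 and DEHP 1 were the highest arrays. Its relative Ccn2 was at 0.28, 0.41, 0.51 and 1.23 with DEHP and at 0.29, 0.39, 0.29 and 0.30 in control, and Egr1, another immediate early factor, at 0.04, −0.18, −0.25 and 1.84 with DEHP and at 0.10, 0.31, −0.25 and 0.11 in control. In both of these genes DEHP 4 was the highest of all 8 arrays. Over 21 immediate early genes tested the median was 0.00, with 0 called, and Cebpd, an acute phase factor, was 0.17 lower without overlap (−0.17 ± 0.12).

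Sycp1 was at −1.80, −1.03, −1.60 and −1.77 with DEHP and at −2.44, −2.65, −1.93 and −2.52 in control, a difference of 0.83 ± 0.20 (adjusted p = 0.45). Brme1, a meiotic recombination protein, was at 0.43 ± 0.15. Apoe, the lipoprotein ligand, was at 3.82, 4.16, 3.93 and 4.14 with DEHP and at 3.55, 3.51, 3.73 and 3.80 in control (0.36 ± 0.13). Padi3, which converts arginine to citrulline in proteins, was at 0.47 ± 0.17 and Wnt6, a signalling ligand, at 0.35 ± 0.15. Control 2 was the lowest control array in Sycp1, Brme1, Apoe and Wnt6, as in Amh above, and Control 4 in Padi3. None of these genes passed, and the adjusted p was 0.921 for Brme1, Apoe, Padi3 and Wnt6.

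**Figure D4:**
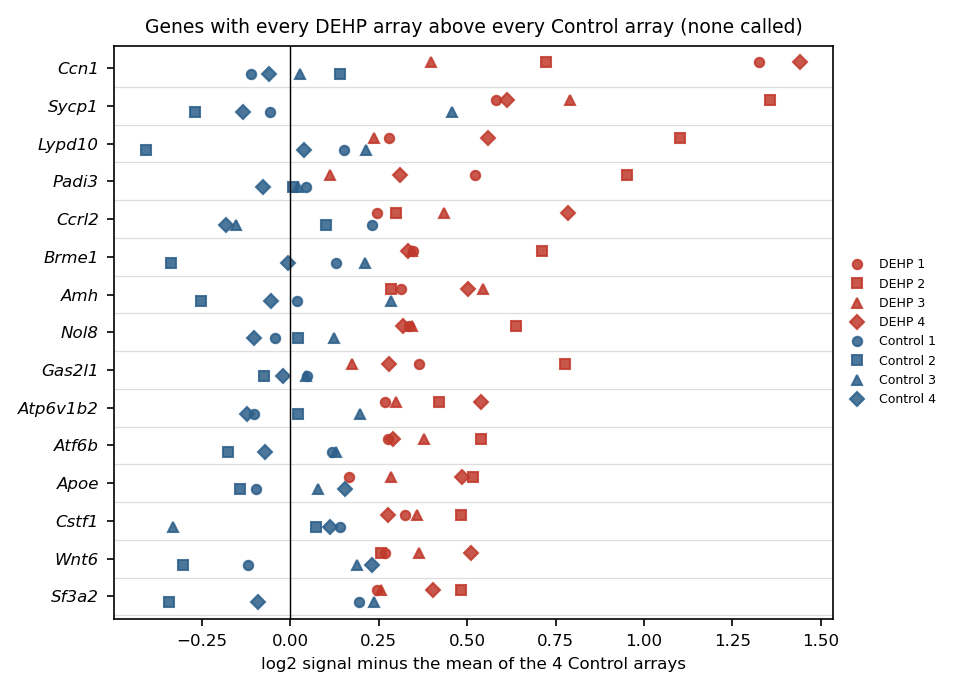
Log2 signal on each DEHP array (red, upper row) and control array (blue, lower row), minus the control mean, for the 15 named genes with the largest differences among those with every DEHP array above every control array. The differences run from 0.35 to 0.97, none was called, and DEHP 2 or DEHP 4 is often the highest array.

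Housekeeping machinery showed small, uncalled differences. Of 31 proteasome subunits 24 were above 0 (median 0.10), of 19 translation factors 17 (median 0.11), and of 16 heat shock proteins and co-chaperones 12 (median 0.10), with 0 called in each. In the scaling and filter alternatives these medians stayed above 0, at 0.02 to 0.30, 0.03 to 0.31 and 0.02 to 0.20. As reported, the median of all genes was itself 0.06 in the brightest eighth and 0.06 in the eighth below it. Fkbp4, a co-chaperone of steroid receptors, was at 4.21, 4.74, 4.30 and 4.68 with DEHP and at 4.09, 3.39, 4.35 and 4.03 in control (0.52 ± 0.20). Control 2 was the lowest array in Fkbp4, and likewise in Stip1 (a co-chaperone, 0.42 ± 0.20), Eif3b (0.39 ± 0.21), Eif5a (0.37 ± 0.20), Mcm5 (a helicase subunit, 0.49 ± 0.33) and Mcm2 (0.33 ± 0.20). Psmd1, a proteasome subunit, was 0.27 ± 0.13 higher without overlap, and a dimmer probe of it was at 0.01. Cell cycle genes had a median of 0.04 over 36 tested.

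Cytosolic ribosomal proteins could barely be measured, since 52 of 66 on the array had under 2 control values after marked spots were set aside. Of the 14 tested 0 were called and the median was 0.00. With marked spots kept all 66 were tested, the median was 0.17, and 18 were higher and 6 lower without overlap. Among all 23766 genes tested in that setting, 326 were higher and 471 lower without overlap. For 52 of the 66 the kept values include marked control spots, so they cannot be set beside other lists. Rplp1 was at 9.81, 9.70, 9.70 and 9.63 with DEHP and at 10.09, 10.61, 10.34 and 10.14 in control (−0.58 ± 0.14), and Rpl13a at −0.54 ± 0.13, both without overlap and neither called. Ribosomal protein genes have many near-identical copies, so these values are uncertain. When marked spots were kept, 48 genes were called higher, and all 48 were marked on at least 1 control array.

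Signalling and stress lists held no calls. Of 25 BMP, activin and TGF-beta genes tested 0 were called, with a median of −0.08: Nog, a BMP antagonist, was at −0.39 ± 0.15 without overlap, and Inhba, an activin subunit, at −0.40 ± 0.16, and Gdf6, a BMP ligand, at −0.51 ± 0.21, both with overlap. Of 25 nuclear receptors 0 were called, with Rora at −0.62 ± 0.19 (2 of 4 DEHP arrays well above background) and Nr2f6 at 0.31 ± 0.13, both without overlap. Hedgehog, Notch and Wnt genes had medians of −0.10, −0.08 and 0.00 with 0 called: Ptch1 was at −0.24 ± 0.13, Heyl at −0.30 ± 0.16 and Sfrp2, a Wnt inhibitor, at −0.30 ± 0.18. In the other direction, Smo in the Hedgehog list (3 above 0, 8 below) was at 0.33 ± 0.225. Tgfb1 in the BMP list (7 above 0, 18 below) was at 0.29 ± 0.15, and both overlapped. Ddit4, a stress-induced inhibitor of growth signalling, was at −0.52 ± 0.20 without overlap. Bak1, which permeabilises mitochondria in cell death, was 0.15 ± 0.12 higher without overlap. Collagens and matrix genes had a median of 0.03 over 35 tested, retinoid genes −0.05 over 15 and endoplasmic reticulum stress genes −0.02 over 20, with 0 called in each.

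The called genes were also read on the arrays of the other compounds, as levels with no test. Gsta2 averaged −1.17 with DEHP, −1.05 with MEHP, 0.23 with EHO, 1.34 with TOTM and 1.53 in control, and Procr 1.68 with DEHP, 1.86 with MEHP, 3.04 with EHO, 3.63 with TOTM and 3.71 in control. The MEHP arrays were the most spread, from −2.10 to 1.21 for Gsta2 and from 1.08 to 3.62 for Procr. In both genes MEHP 3 was the high array, and the other MEHP arrays ran only up to −1.42 and 1.62. MEHP 3 was also the highest MEHP array in every other called gene. Among the called genes, Cyp51 and A_44_P473603 had all TOTM arrays below all control arrays. All EHO arrays lay below all control arrays in Gsta2, Atp4b, Tm7sf2, Star, Stc2, Fabp6, Scarb1, Scd, Degs1l2 and Lhcgr, though in Star they nearly met. The share of spots well above background was 46.1% on EHO 1 and 50.4% on EHO 2. Scd averaged −2.13 with DEHP, −2.08 with MEHP, −1.37 with EHO, −1.01 with TOTM and −0.95 in control. All compounds were given at 500 mg/kg, which is equal by mass and not by mole.

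**Figure D5:**
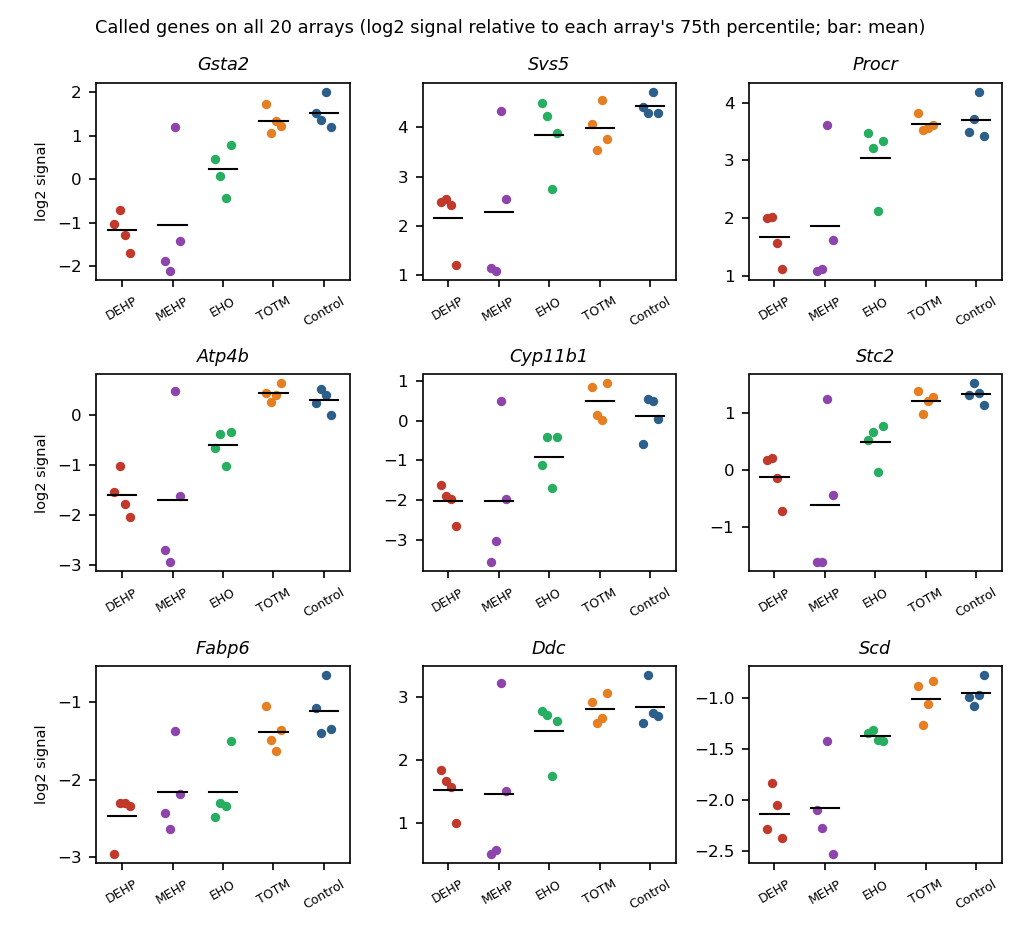
Log2 signal of 9 called genes on all 20 arrays, 4 per group, with the group mean as a bar. The DEHP points lie below the control points in each panel, the TOTM points overlap the control points, and the highest MEHP array lies above all DEHP arrays in each panel.

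The authors' deposited table lists 1004 probes for DEHP, 503 with a positive and 501 with a negative fold. All 17 called genes are in it, and 651 of its probes were tested here, all 651 with the same sign. The table was made from this same series, and the highest p of its probes was 0.00999 in the authors' own test. The shared signs are therefore no independent support. In the authors' deposited table Gsta2 has folds of −5.77 and −12.4 for its 2 probes, Procr −3.88 and −4.03, Svs5 −4.33 and Ccn1 1.88 and 1.84. Of the listed probes with at least 2-fold, 14 are positive and 20 negative in the authors' deposited table.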

How the data were processed

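Each array was a 1-colour Agilent rat array with 700 ng of Cy3-labelled RNA. The deposited intensity values are, per the file headers, processed signals of Feature Extraction 9.5.3.1 (protocol GE1-v5_95_Feb07), background-subtracted by the authors' software, with probe coordinates on rn4; version 9.5 is named in the submitters' processing notes. For each probe it lists, the table deposited by the authors gives a fold as a signed score (negative for lower) and a p-value, and its test is not given in the sources used here.

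Control spots were left out. From each log2 value the array's 75th percentile over all probes was subtracted, and spots marked as uneven or outlying were then set aside. Probes were kept where 1 group or both had all 4 arrays well above background (27634 probes). The probe with the highest mean signal stood for a gene, and at least 2 values per group were required. limma 3.58.1 in R 4.3.3 fitted the 8 arrays with 6 residual and 6.20 prior degrees of freedom. Files were read with the data.table package, version 1.17.8. Probes were named through RefSeq by accession or symbol, which gave 11837 tested genes a symbol. The number of arrays limits the precision, and p-values measure the spread between litter pools.

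The members, the 56 gene lists and the tests were chosen with earlier results of these data known, so no list is independent support. Named genes are the called ones, up to 15 each way with the largest difference and no overlap, and list members that were largest (up to 4) or did not overlap. On simulated data for this comparison (23408 genes), 34 of 50 genes changed 2-fold, 45 of 50 changed 3-fold and 7 of 50 changed 1.5-fold were recovered, and 6 of 139 calls were unchanged genes. The simulated noise was drawn separately for each gene and array, without a slide effect or an array standing apart. These rates therefore hold for that setting and not for the slides compared here. Alternatives were other scalings, background correction, filters, models and left-out arrays. The other 12 arrays entered only the fits named as such. Results on a few genes are not reported here.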

Additional observations from a re-analysis of the deposited data

Results flagged for a closer look

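In 254 sets of 4 arrays (the 2 groups of each named gene), 21 had 1 array whose gap to the nearest other exceeded Dixon's critical value, where chance gives about 1 in 20. All values are log2 levels, the lone array first.

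Among the called genes, Svs5 was at 1.20 on DEHP 4, with the other DEHP arrays at 2.43 to 2.54, and Fabp6 was at −2.96 on DEHP 1, with the others at −2.34 to −2.30. On DEHP 4, Egr1 was high at 1.84 (others −0.25 to 0.04), while Prlr was low at −2.53 (others −2.21 to −2.16) and Acta1, skeletal actin, low at −3.02 (others −2.45 to −2.41). On DEHP 2, Brme1 was high at 1.85 (others 1.48 to 1.49), Nol8, a nucleolar protein, high at 1.42 (others 1.11 to 1.13), and Cebpd low at 2.26 (others 2.38 to 2.39). On DEHP 1, Prdx1 was high at 5.91 (others 5.70 to 5.73). On DEHP 3, Mmp11, a matrix protease, was at 0.94 (others 0.84 to 0.85), and Krt10, a keratin of the skin, was at 1.37 (others −2.59 to −2.34).

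On Control 1, Prdx1 was low at 5.32 (others 5.64 to 5.65), Kitlg low at 0.65 (others 1.18 to 1.24), Acta1 high at −1.78 (others −2.40 to −2.31) and Igfbp1, a growth factor binding protein, high at −1.36 (others −1.51 to −1.49). On Control 2, Ephx1 was high at 1.88 (others 1.21 to 1.31), Bnip3, a hypoxia-induced mitochondrial protein, high at 1.83 (others 0.91 to 1.02), Ccn2 high at 0.39 (others 0.29 to 0.30), Akr1b7 low at −1.76 (others −0.82 to −0.65) and Isg15, an interferon-induced modifier, low at −0.36 (others 0.47 to 0.63). On Control 3, Cstf1, a polyadenylation factor, was low at −3.05 (others −2.65 to −2.58).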

How the results depend on the processing

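In the 23 alternative settings that refit the arrays, all 17 called genes that had a value stayed below control. Gsta2 passed in 22 settings, Svs5, Procr and Atp4b in 19, Cyp11b1 and Tm7sf2 in 17, Star, Stc2 and Scd in 15, Scarb1 in 13, Degs1l2, Cyp51 and A_44_P473603 in 11, Lhcgr in 10, Ddc in 9, and Fabp6 and Ebp in 8. Against 17 calls as reported (0 higher, 17 lower), there were 26 with quantile normalization (26 lower), 7 with median scaling (7 lower), 1 with normexp (1 lower), 1 without a filter (1 lower), 1 in the fit of all 20 arrays (1 higher, 0 lower), 74 with marked spots kept (48 higher, 26 lower) and 1 without Control 2 and DEHP 3 together (1 lower). The fit with TOTM arrays and the weighted fit each called 1 gene higher. Leaving out 1 array at a time gave 4 to 16 calls, 0 of them higher, with 255 to 991 genes higher and 523 to 1608 lower without overlap. Genes without overlap numbered 326 higher with marked spots kept, 1834 higher and 2563 lower without Control 2 and DEHP 3, 132 higher with the percentile over detected probes, 31 higher and 1053 lower with the percentile over unmarked probes, 85 higher and 82 lower with normexp, and 232 lower with median scaling. The percentiles over detected and over unmarked probes were chosen after seeing the data. With replicate number as a block there were 17 calls, 14 of them among the 17. The numbers do not pair the samples (correlations of same-numbered deviations 0.10, 0.10, 0.01 and −0.08). Slc7a8, Mrap, Fdx1, Hmgcs1, Idi1 and Rpl13a passed, lower, in at least 1 setting, and 11 of 110 uncalled named genes changed sign in at least 1. The causes of these changes were not tested, and low signal limits Fabp6, Lhcgr, Rora, Scd and Degs1l2.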

Other observations

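Krt10 and Csta were high on 1 DEHP array alone and are named here as genes chosen after their values were seen. Krt10, a keratin of the skin surface, was at 1.37 on DEHP 3 and between −2.59 and −2.34 on the other DEHP arrays, against −2.67 to −2.07 on the control arrays. Csta, a cysteine protease inhibitor of skin, was at 2.18 on DEHP 3 and between −2.32 and −1.37 on the other DEHP arrays, against −2.57 to −1.12 on the control arrays. Neither gene was called. Testin, chosen in the same way, was at −1.77, −2.49, −0.91 and −1.51 with DEHP and at −2.29, −2.73, −2.74 and −2.54 in control (0.91, adjusted p = 0.861), with DEHP 1, DEHP 3 and DEHP 4 above all control arrays and DEHP 2 within the control range.

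DEHP 4 was the lowest DEHP array in 14 of the 17 called genes, and DEHP 2 the highest in 14. The SD among DEHP arrays exceeded that among control arrays in 13 of the 17.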
